A study of Homo sapiens with 6 samples.

Results

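The genes described here are 34 genes of cholesterol and fatty acid synthesis. They were compared between bladder cancer cells with and without a knockdown of the long noncoding RNA BLACAT3. The list was chosen by name from pathway knowledge, with earlier results of these data known. Shares of the list that passed are therefore a description. All 34 had 1 row each in the table of 11081 gene rows. They also had a mean of at least 1 FPKM (fragments per kilobase, a level corrected for gene length and library size) over the 6 libraries, so that all were among the 10008 genes tested. The tested cells were T24, an established human bladder cancer line, that carried a lentiviral short hairpin RNA against BLACAT3 (shBLACAT3, 3 libraries), and their controls were T24 cells with a lentiviral control hairpin (shControl, 3 libraries). Cells of both groups had been selected with puromycin as stable strains and grown in RPMI medium with fetal bovine serum. The labels do not say whether a strain was 1 clone or a pool, how many hairpin sequences were used, or whether the replicates were grown apart. A p-value here therefore reflects the scatter among these 6 libraries, and that scatter may be technical.

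Cells make cholesterol from acetyl-CoA through the mevalonate pathway, whose isoprenoid product is joined into squalene, closed into the sterol ring of lanosterol and trimmed to cholesterol. Fatty acid synthesis draws on the same acetyl-CoA, which is made from citrate or acetate, and builds palmitate that is then lengthened and desaturated. The SREBP transcription factors switch on both pathways. When sterols are plentiful, INSIG proteins hold the SREBPs and their escort SCAP in the endoplasmic reticulum, and when sterols are scarce the SREBPs travel to the Golgi, are cut and enter the nucleus. INSIG1 is itself a target of the SREBPs.

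An adjusted p under 0.05 in limma was reached by 8 of the 34 genes, 5 of them higher and 3 lower in shBLACAT3 cells. Those that rose were INSIG1, FABP5, ACAT2, IDI1 and SQLE, by 24.4% to 58.6% of the shControl mean, and those that fell were HMGCS1, CPT1A and ACSS2. ACSS2 fell by 22.9%, CPT1A fell by 33.0% and HMGCS1 fell by 49.8%. Among all genes tested 9.37% passed, 2.57% higher and 6.80% lower, and among the 34 genes 23.5% passed. The median log2 fold change was 0.11 over the 34 genes and -0.0025 over all genes tested. Of the 34 means 26 were higher in shBLACAT3 cells, beside 4947 of the 10008 means over all genes tested. The libraries of the 2 groups did not overlap in 18 of the 34 genes, 14 with higher and 4 with lower values in shBLACAT3 cells, against 32.8% of all genes tested. HMGCS1, an early enzyme of the mevalonate pathway, moved against ACAT2 and IDI1, the other called genes of that pathway, and had the largest absolute log2 fold change of the 34. The log2 fold changes of the 26 genes that did not pass lay between -0.64 and 0.35.

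**Figure D1:**
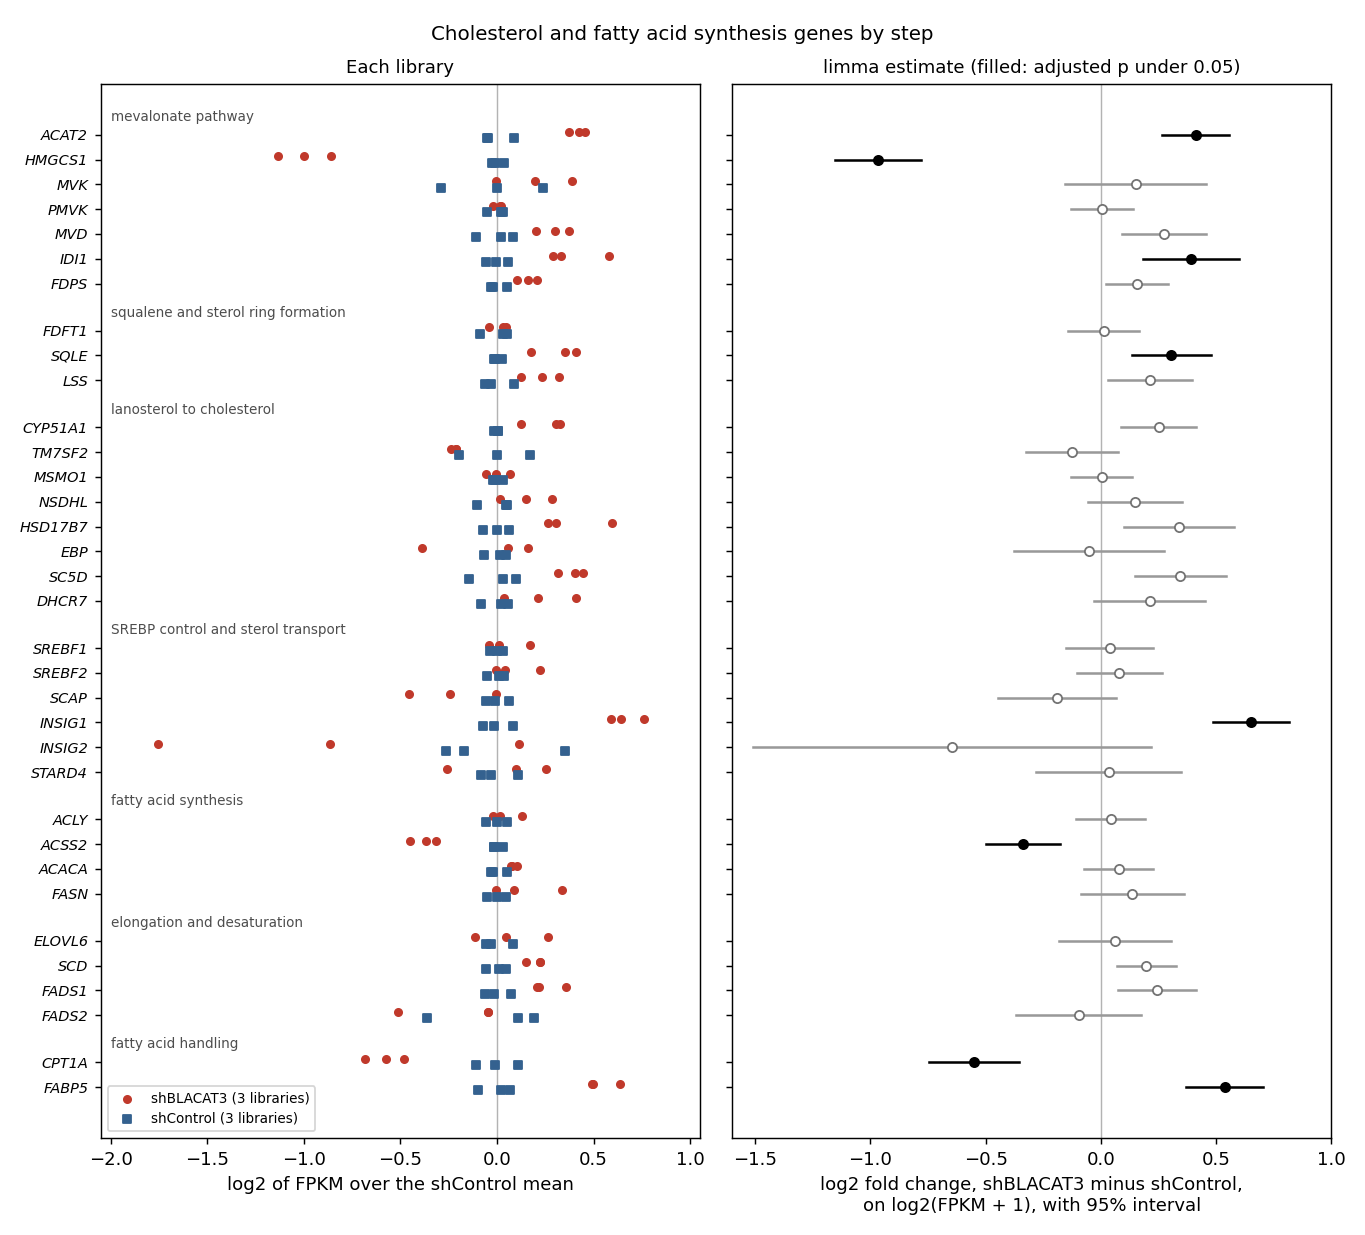
The 34 genes by step of the pathway, from top to bottom; the left panel plots each library as log2 of its FPKM over the shControl mean (circles shBLACAT3, squares shControl, 3 libraries each), and the right panel plots limma's log2 fold change with its 95% interval. Filled points mark the 8 genes past an adjusted p of 0.05, with HMGCS1 farthest to the left at -0.97 and INSIG1 farthest to the right at 0.65.

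Facts of the libraries that bear on these values are few. The listed values summed to between 211958 and 226953 FPKM in shBLACAT3 libraries and between 220543 and 225122 FPKM in shControl libraries, and read depth is unknown. Of 10 epithelial marker genes chosen, KRT7, KRT8 and KRT18 had rows, and together they stood at 117 to 136 FPKM in shBLACAT3 libraries and 174 to 204 FPKM in shControl libraries. KRT8 and KRT18 fell, while KRT7 went the other way without passing, at 28.61 to 35.5 FPKM in shBLACAT3 libraries and 13.59 to 24.17 FPKM in shControl libraries (log2 fold change 0.69, adjusted p 0.0968). Their part in the results below was not tested. Of 12 leukocyte markers only CD68 had a row, at 0.0038 to 0.62 FPKM in shBLACAT3 libraries and 0.686 to 1.215 FPKM in shControl libraries, and of 8 endothelial markers 0 had one. The level of BLACAT3 RNA was not analysed here, and the group labels could not be checked by the knockdown.

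In the mevalonate pathway 3 of 7 genes passed, 2 higher and 1 lower, beside 9.37% of all genes tested. ACAT2, the cytosolic thiolase that joins acetyl-CoA units to acetoacetyl-CoA, stood at 51.7, 54.9 and 53.7 FPKM in shBLACAT3 replicates 1, 2 and 3 and at 38.6, 38.7 and 42.5 FPKM in shControl replicates 1, 2 and 3. All shBLACAT3 libraries lay above all shControl libraries, and the log2 fold change was 0.41 (SE 0.06, adjusted p 0.0102). HMGCS1, the synthase of the next step, which makes HMG-CoA from that product, stood at 22.2, 24.6 and 20.3 FPKM in shBLACAT3 cells and at 44.2, 45.6 and 43.7 FPKM in shControl cells. Its highest shBLACAT3 library was thus far below its lowest shControl library. The level fell by 49.8%, to 22.4 ± 2.15 FPKM in shBLACAT3 cells, against 44.5 ± 1.01 FPKM in shControl cells (SD, n = 3 each), a log2 fold change of -0.97 (SE 0.08, 95% interval -1.15 to -0.78, adjusted p 0.000828). By log2 fold change HMGCS1 was the 143rd lowest of the 10008 genes.

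Further down the pathway the levels were equal or higher. IDI1, the isomerase that activates the isoprenoid unit, stood at 52.2, 62.1 and 50.8 FPKM in shBLACAT3 cells and at 39.97, 43.27 and 41.40 FPKM in shControl cells. The groups did not overlap, and IDI1 rose with a log2 fold change of 0.39 (SE 0.09, adjusted p 0.0399), replicate 2 being the highest library of each group. MVD, the decarboxylase before IDI1, had 16.56, 14.75 and 15.75 FPKM in shBLACAT3 cells and 12.98, 13.56 and 11.87 FPKM in shControl cells. The MVD groups did not overlap either, but it did not pass (log2 fold change 0.27, 95% interval 0.09 to 0.46, adjusted p 0.0799). FDPS, which condenses the units to farnesyl diphosphate and had the highest level of the 7 genes in both groups, stood at 59.2 ± 2.21 FPKM in shBLACAT3 cells and 53.1 ± 1.75 FPKM in shControl cells (SD, n = 3 each; adjusted p 0.147). The kinases in the middle of the pathway did not pass: MVK stood at 3.02 ± 0.41 FPKM in shBLACAT3 cells and 2.62 ± 0.48 FPKM in shControl cells (SD, n = 3 each). PMVK stood at 19.7 ± 0.29 FPKM in shBLACAT3 cells and 19.7 ± 0.61 FPKM in shControl cells, and its 95% interval of -0.13 to 0.14 on the log2 scale leaves out changes of the size seen in ACAT2 or HMGCS1.

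The opposite movement of HMGCS1 and its neighbours can be read within each library, where no scaling between libraries enters. The FPKM ratio of HMGCS1 to ACAT2 was 0.430, 0.448 and 0.378 in shBLACAT3 replicates 1, 2 and 3 and 1.145, 1.178 and 1.029 in shControl replicates 1, 2 and 3. Likewise the ratio of HMGCS1 to IDI1 was 0.426, 0.395 and 0.399 in shBLACAT3 cells and 1.105, 1.054 and 1.055 in shControl cells. HMGCS1 was thus listed above ACAT2 and IDI1 in all 3 shControl libraries and below both in all 3 shBLACAT3 libraries. These ratios were chosen after the levels were known and are given as a description.

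**Figure D2:**
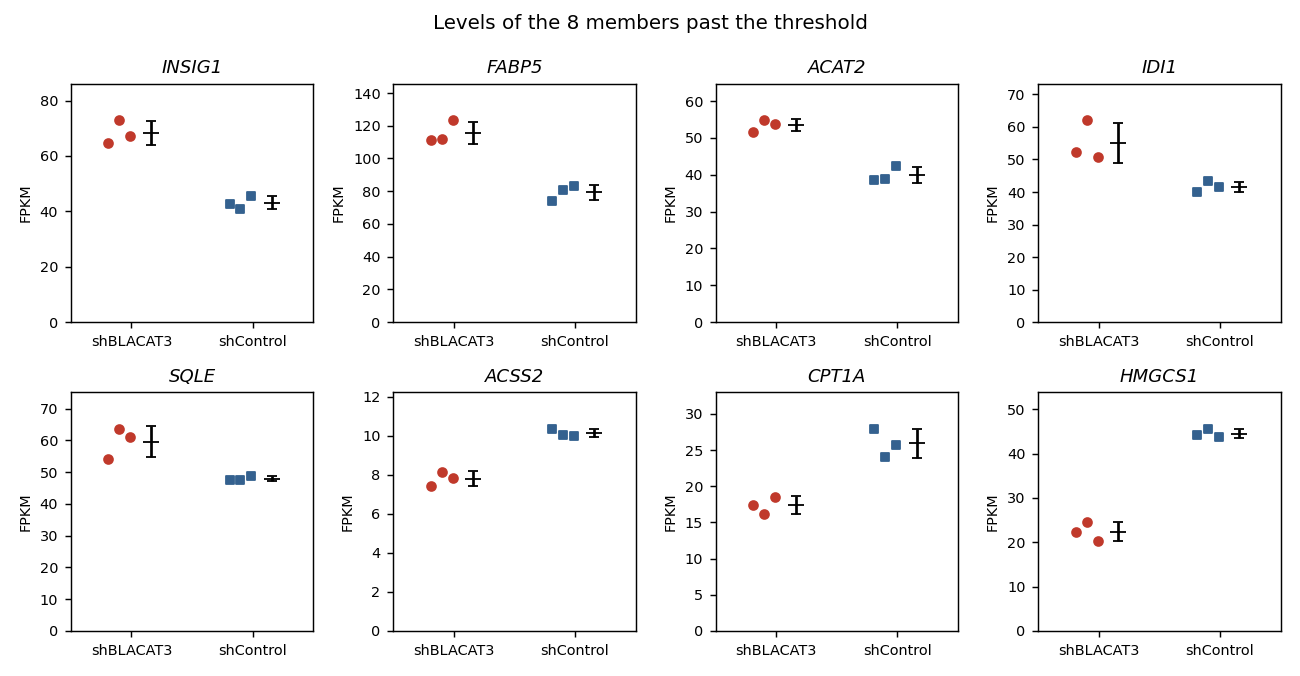
FPKM of the 8 genes past the threshold, with 1 panel a gene; points are the 3 libraries of each group (circles shBLACAT3, squares shControl), and the bars beside them are the mean and SD. In each panel the libraries of the groups do not overlap, and HMGCS1 stands at 20.3 to 24.6 FPKM in shBLACAT3 cells and 43.7 to 45.6 FPKM in shControl cells.

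In squalene and ring formation 1 of 3 genes passed, beside 9.37% of all genes tested. SQLE, the squalene epoxidase, a slow step of the sterol branch, stood at 54.1, 63.7 and 61.1 FPKM in shBLACAT3 cells and at 47.6, 47.4 and 48.8 FPKM in shControl cells. The groups did not overlap, though shBLACAT3 replicate 1 came close, and SQLE rose with a log2 fold change of 0.31 (SE 0.07, adjusted p 0.0473). FDFT1, the squalene synthase before it, was close to even, at 22.4 ± 0.74 FPKM in shBLACAT3 cells and 22.3 ± 1.16 FPKM in shControl cells (SD, n = 3 each). LSS, the cyclase that makes lanosterol, ranged from 14.83 to 16.98 FPKM in shBLACAT3 cells and from 13.03 to 14.46 FPKM in shControl cells, without overlap but with an adjusted p of 0.143.

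In the steps from lanosterol to cholesterol 0 of 8 genes passed in limma. An unadjusted p under 0.05 was found for 3 of the 8, and for 2569 of all 10008 genes tested. Of the 8 means, 6 were higher in shBLACAT3 cells (median log2 fold change 0.18), beside 4947 of the 10008 means over all genes tested. SC5D, a sterol desaturase near the end of the route, lay closest to the threshold, with 9.03, 9.29 and 8.50 FPKM in shBLACAT3 cells and 6.99, 7.32 and 6.18 FPKM in shControl cells (log2 fold change 0.35, SE 0.08, adjusted p 0.0503). CYP51A1, the lanosterol demethylase and the most abundant of the 8 by FPKM, stood at 87.6, 101 and 99.4 FPKM in shBLACAT3 cells and at 80.7, 79.6 and 80.8 FPKM in shControl cells (adjusted p 0.0702). HSD17B7, a ketosterol reductase, stood at 7.026, 7.255 and 8.861 FPKM in shBLACAT3 cells and 5.87, 5.58 and 6.12 FPKM in shControl cells (adjusted p 0.0883). In these 3 genes every shBLACAT3 library lay above every shControl library, as in 1414 of all 10008 genes tested. Without overlap in either direction were 4 of the 8 genes and 32.8% of all genes tested. DHCR7, the reductase of the last step, overlapped between groups, at 20.3 to 26.3 FPKM in shBLACAT3 cells and 18.7 to 20.6 FPKM in shControl cells, as did NSDHL, a dehydrogenase of demethylation, at 34.2 to 41.2 FPKM in shBLACAT3 cells and 31.5 to 35.0 FPKM in shControl cells. MSMO1, the methylsterol oxidase, was close to even, at 52.6 ± 2.28 FPKM in shBLACAT3 cells and 52.5 ± 1.04 FPKM in shControl cells (SD, n = 3 each). EBP, a sterol isomerase, ranged from 13.03 to 19.07 FPKM in shBLACAT3 cells around the 16.3 to 17.6 FPKM of shControl cells. TM7SF2, a sterol reductase listed at only 1.26 to 1.28 FPKM in shBLACAT3 cells and 1.30 to 1.67 FPKM in shControl cells, was the only gene of this step whose shBLACAT3 libraries all lay below the shControl libraries (adjusted p 0.394).

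Summed over the 17 enzymes of cholesterol synthesis other than HMGCS1, the level was 527, 556 and 562 FPKM in shBLACAT3 replicates 1, 2 and 3 and 472, 467 and 474 FPKM in shControl replicates 1, 2 and 3. The sum was higher in each shBLACAT3 library, and CYP51A1 contributed the most to it. HMGCS1, the enzyme called lower, was left out with its level known, so the sum is a description. The 7 mevalonate genes with HMGCS1 included summed to 227, 235 and 223 FPKM in shBLACAT3 cells. In shControl cells the same 7 summed to 213, 215 and 214 FPKM. Over all 18 enzymes, 3 were called higher and 1 lower, beside 2.57% higher and 6.80% lower among all genes tested. Of the 18 means 15 were higher in shBLACAT3 cells, beside 4947 of the 10008 means over all genes tested.

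Among the genes that control the SREBPs, INSIG1 passed and the SREBP genes themselves did not. INSIG1, the sterol-dependent anchor, stood at 64.75, 72.96 and 67.18 FPKM in shBLACAT3 cells and at 42.7, 41.0 and 45.6 FPKM in shControl cells. The groups lay well apart, and INSIG1 rose by 58.6%, with a log2 fold change of 0.65 (SE 0.07, 95% interval 0.49 to 0.82, adjusted p 0.00258), the 100th highest of the 10008 genes. SREBF2, which encodes the SREBP that chiefly drives sterol genes, stood at 14.6, 12.5 and 12.9 FPKM in shBLACAT3 cells and 12.9, 12.1 and 12.6 FPKM in shControl cells (adjusted p 0.552). SREBF1, which encodes the SREBP forms that chiefly drive fatty acid genes, stood at 3.94 ± 0.31 FPKM in shBLACAT3 cells and 3.80 ± 0.09 FPKM in shControl cells (SD, n = 3 each; adjusted p 0.803). Their 95% intervals, -0.10 to 0.27 for SREBF2 and -0.15 to 0.23 for SREBF1 on the log2 scale, cover RNA levels only, since SREBP activity is set by cleavage of the protein.

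SCAP, the escort, had 4.82, 3.53 and 4.08 FPKM in shBLACAT3 cells and 5.06, 4.80 and 4.66 FPKM in shControl cells and did not pass (adjusted p 0.319). INSIG2, the less sterol-responsive homolog of INSIG1, was listed at 2.03, 7.44 and 3.77 FPKM in shBLACAT3 cells and 5.71, 8.78 and 6.11 FPKM in shControl cells. It was the noisiest of the 34 genes in both groups, with replicate 2 the highest library of each group, and its log2 fold change of -0.64 had a 95% interval from -1.51 to 0.22. STARD4, which carries sterol between membranes, also overlapped, at 35.9 to 51.2 FPKM in shBLACAT3 cells and 40.5 to 46.2 FPKM in shControl cells.

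Promoter sequence is shown for the 3 genes with the largest absolute log2 fold change among the 8, HMGCS1, INSIG1 and CPT1A, because 2 of them moved in opposite directions although both are textbook sterol-responsive genes and the third lies outside sterol synthesis. The 250 bases before the start are given 5′ to 3′ in the direction of the gene, from RefSeq on GRCh38.p14, at chr5:43313413-43313662 (minus strand), chr7:155297628-155297877 (plus strand) and chr11:68844278-68844527 (minus strand). For HMGCS1, which has 2 starts in the RefSeq table, the one listed first is shown. Capitals mark matches on either strand to CACNCCAC, the core of the sterol regulatory element bound by SREBPs, to CACGTG, the E-box, to CCAAT, the box bound by NF-Y, and to GGGCGG, the GC box bound by SP1.
HMGCS1: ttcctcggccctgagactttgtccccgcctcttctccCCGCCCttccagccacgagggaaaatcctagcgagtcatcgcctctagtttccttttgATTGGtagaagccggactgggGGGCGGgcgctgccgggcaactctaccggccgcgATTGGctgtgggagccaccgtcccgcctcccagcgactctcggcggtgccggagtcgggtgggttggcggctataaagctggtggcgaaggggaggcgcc
INSIG1: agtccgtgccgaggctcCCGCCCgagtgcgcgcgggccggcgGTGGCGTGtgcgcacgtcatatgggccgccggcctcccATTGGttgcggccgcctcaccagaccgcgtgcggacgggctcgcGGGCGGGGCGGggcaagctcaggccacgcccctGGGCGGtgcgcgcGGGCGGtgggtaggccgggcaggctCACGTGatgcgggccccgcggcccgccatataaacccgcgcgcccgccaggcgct
CPT1A: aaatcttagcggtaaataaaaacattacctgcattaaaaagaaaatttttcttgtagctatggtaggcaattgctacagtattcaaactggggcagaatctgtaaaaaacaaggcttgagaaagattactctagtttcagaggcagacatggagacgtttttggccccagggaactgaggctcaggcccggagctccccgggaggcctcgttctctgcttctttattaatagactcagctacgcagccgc

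The stretch of INSIG1 held 1 match to the sterol element core, 208 to 201 bases before the start, 1 E-box, 1 CCAAT box and 5 GC boxes, among which a pair overlapped in 1 base. That of HMGCS1 held 2 CCAAT boxes, 155 and 100 bases before the start, and 2 GC boxes, and that of CPT1A held none of the motifs. RefSeq windows of 300 bases, from 250 before to 50 after the start, were matched by symbol for 29 of the 34 genes (40 windows, since some genes have several starts). ACAT2, FDFT1, SQLE, FASN and FABP5 had no entry. The sterol element core occurred in 17.5% of these 40 windows and in 5.87% of all 35116 windows, in INSIG1, IDI1, SC5D, SCD, SREBF2 and ACACA. Of these 6 genes INSIG1 and IDI1 passed, both higher, beside 23.5% of the 34 genes and 9.37% of all genes tested. ACAT2, SQLE and FABP5, also called higher, had no window, so the calls cannot be divided by motif. The CCAAT box occurred in 62.5% of the 40 windows and in 34.6% of all, the GC box in 87.5% and 45%, and the E-box in 12.5% and 7.26%. A match describes letters only.

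Fatty acid synthesis proper showed little movement beyond ACSS2. ACSS2, which makes acetyl-CoA from acetate, stood at 7.44, 8.16 and 7.86 FPKM in shBLACAT3 cells and at 10.4, 10.0 and 10.0 FPKM in shControl cells. It fell by 22.9%, with no overlap between the groups (log2 fold change -0.34, SE 0.07, adjusted p 0.0277). ACLY, which makes acetyl-CoA from citrate, stood at 92.7 ± 5.15 FPKM in shBLACAT3 cells and 89.9 ± 3.46 FPKM in shControl cells (SD, n = 3 each; adjusted p 0.704). The FPKM ratio of ACSS2 to ACLY was 0.0838, 0.0897 and 0.0797 in shBLACAT3 cells and 0.111, 0.116 and 0.111 in shControl cells. ACACA, the carboxylase that makes malonyl-CoA, stood at 9.95, 10.2 and 9.96 FPKM in shBLACAT3 cells and 9.30, 9.81 and 9.24 FPKM in shControl cells, without overlap and with an adjusted p of 0.482. FASN, the synthase that builds palmitate, stood at 35.68, 28.16 and 30.03 FPKM in shBLACAT3 cells and 28.3, 27.2 and 29.2 FPKM in shControl cells, so that shBLACAT3 replicates 1 and 3 lay above all controls and replicate 2 lay among them (adjusted p 0.405).

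Of the 4 genes of elongation and desaturation 0 passed in limma. SCD and FADS1 had an unadjusted p under 0.05, as did 2569 of all 10008 genes tested. SCD, the desaturase that makes oleate and the most abundant of the 34 genes by FPKM, stood at 138, 145 and 145 FPKM in shBLACAT3 cells and at 119, 125 and 128 FPKM in shControl cells (log2 fold change 0.20, 95% interval 0.07 to 0.33, adjusted p 0.0718). FADS1, a desaturase of polyunsaturated fatty acids, stood at 15.5, 15.4 and 17.1 FPKM in shBLACAT3 cells and 12.8, 13.2 and 14.0 FPKM in shControl cells (adjusted p 0.0866). Neither gene overlapped between the groups, which was so in either direction for 32.8% of all genes tested. ELOVL6, the elongase that acts on palmitate, stood at 11.4 to 14.8 FPKM in shBLACAT3 cells and 11.9 to 13.1 FPKM in shControl cells, and FADS2, the desaturase paired with FADS1, was listed at 0.845 to 1.17 FPKM in shBLACAT3 cells and 0.937 to 1.37 FPKM in shControl cells.

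The remaining pair handles fatty acids once made, and both passed in opposite directions. CPT1A, which loads fatty acids on carnitine for entry into mitochondria and oxidation, stood at 17.4, 16.1 and 18.5 FPKM in shBLACAT3 cells and at 27.9, 24.1 and 25.7 FPKM in shControl cells. All shBLACAT3 libraries lay below all shControl libraries, and CPT1A fell by 33.0% (log2 fold change -0.55, SE 0.08, adjusted p 0.00995). FABP5, a cytosolic fatty acid binding protein, stood at 111.5, 112.0 and 123.5 FPKM in shBLACAT3 cells and at 74.2, 80.6 and 83.3 FPKM in shControl cells, again without overlap. It rose by 45.7% (log2 fold change 0.54, SE 0.07, adjusted p 0.0059).

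**Figure D3:**
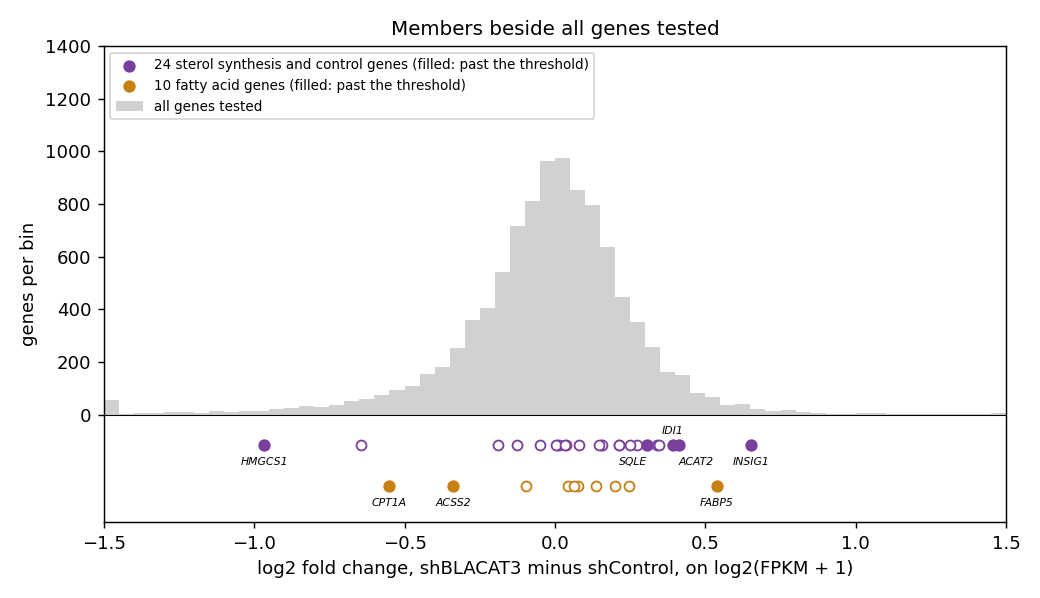
Grey bars count genes by log2 fold change over all 10008 genes tested (the 55 genes beyond 1.5 in either direction are counted in the outermost bars), and the circles below the axis are the 24 sterol genes and the 10 fatty acid genes, filled where past the threshold. Most circles lie just right of 0, 8 lie left of it, among them the filled circles of HMGCS1, CPT1A and ACSS2 and the open circle of INSIG2 at -0.64, and INSIG1 and FABP5 lie right of the bulk of the bars.

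The values of some of the 8 genes may depend on how fragments shared with other genes were assigned. Exons of ACAT2 overlap in GENCODE 29 with exons of TCP1 (397 bases), SOD2 (1141 bases) and SOD2-OT1 (1458 bases, without a row) on the opposite strand. The strand setting of the counting is not given in the sources used here. Its annotation is not given either and may differ from GENCODE 29. TCP1 stood at 40.4 ± 5.83 FPKM in shBLACAT3 cells and 32.1 ± 3.74 FPKM in shControl cells (SD, n = 3 each; adjusted p 0.166), and SOD2 fell to 1.58 ± 0.29 FPKM in shBLACAT3 cells, against 3.54 ± 0.31 FPKM in shControl cells (adjusted p 0.0067). The annotation holds 13 symbols of copies of FABP5. Exons of HMGCS1, IDI1 and FABP5 overlap with antisense transcripts over 703, 643 and 94 bases, while exons of INSIG1, SQLE, ACSS2 and CPT1A overlap with those of no other gene. Among the genes that did not pass, exons of CYP51A1 overlap with those of a same-strand gene over 2844 bases. Exons of FADS1 and FADS2 overlap with each other over 490 bases, those of SREBF1 with RAI1 over 556 and those of MVK with MMAB over 306. Other overlaps were found for FDPS, FDFT1, LSS, TM7SF2, SREBF2, STARD4 and ACLY. The annotation also holds 8 symbols of copies of FDPS and fewer of CYP51A1, HSD17B7, SCD and FADS2. The part of shared fragments in these results was not tested.

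Of 91 other genes of lipid metabolism, in 6 lists chosen by function, 85 had rows and 83 were tested. Of those tested 2 passed, 1 higher and 1 lower, a share of 2.41% beside 9.37% of all genes tested. These lists too were chosen with earlier results of these data known. PNPLA2, the lipase that starts triglyceride breakdown, stood at 11.55, 8.958 and 11.64 FPKM in shBLACAT3 cells and at 15.9, 16.3 and 15.7 FPKM in shControl cells (log2 fold change -0.54, SE 0.10, adjusted p 0.0254). It was the only 1 of 13 genes of triglyceride and phospholipid synthesis and turnover to pass. HADHA, a subunit of the mitochondrial trifunctional protein of fatty acid oxidation, stood at 63.2, 59.0 and 64.0 FPKM in shBLACAT3 cells and at 52.9, 51.5 and 50.4 FPKM in shControl cells (log2 fold change 0.26, SE 0.06, adjusted p 0.0361). In both genes the groups did not overlap. HADHA was the only 1 of 19 oxidation genes to pass, so CPT1A and HADHA, steps of the same route, moved in opposite directions. Of 12 genes of SREBP processing and INSIG degradation limma called 0. An unadjusted p under 0.05 was reached by 4 of the 12, and by 2569 of all 10008 genes tested. Limma called 0 of 12 genes of the isoprenoid branch, 0 of 12 of sterol transport, efflux and esterification and 0 of 15 of fatty acid activation and elongation, with 1, 0 and 1 genes at an unadjusted p under 0.05.

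The calls of the 8 genes were not equally firm. HMGCS1, INSIG1, CPT1A and FABP5 passed whichever of the 6 libraries was left out, with adjusted p of at most 0.00776, 0.0199, 0.0454 and 0.0302. ACAT2 passed in 4 of the 6 such fits and missed without shControl replicate 1 or 2 (adjusted p 0.0549 and 0.0517). IDI1 passed in 2 of the 6 and missed without any shControl replicate or shBLACAT3 replicate 1, ACSS2 passed in 2 and missed without the same libraries, and SQLE passed only without shBLACAT3 replicate 1. The highest adjusted p among these fits was 0.144 for IDI1, 0.119 for ACSS2 and 0.157 for SQLE, and the log2 fold changes kept their sign throughout. The number of genes called higher was 2, 2 and 3 without shControl replicates 1, 2 and 3. PNPLA2 passed in 2 and HADHA in 1 of the 6 fits. PNPLA2 passed only without shBLACAT3 replicate 2 or 3.

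**Figure D4:**
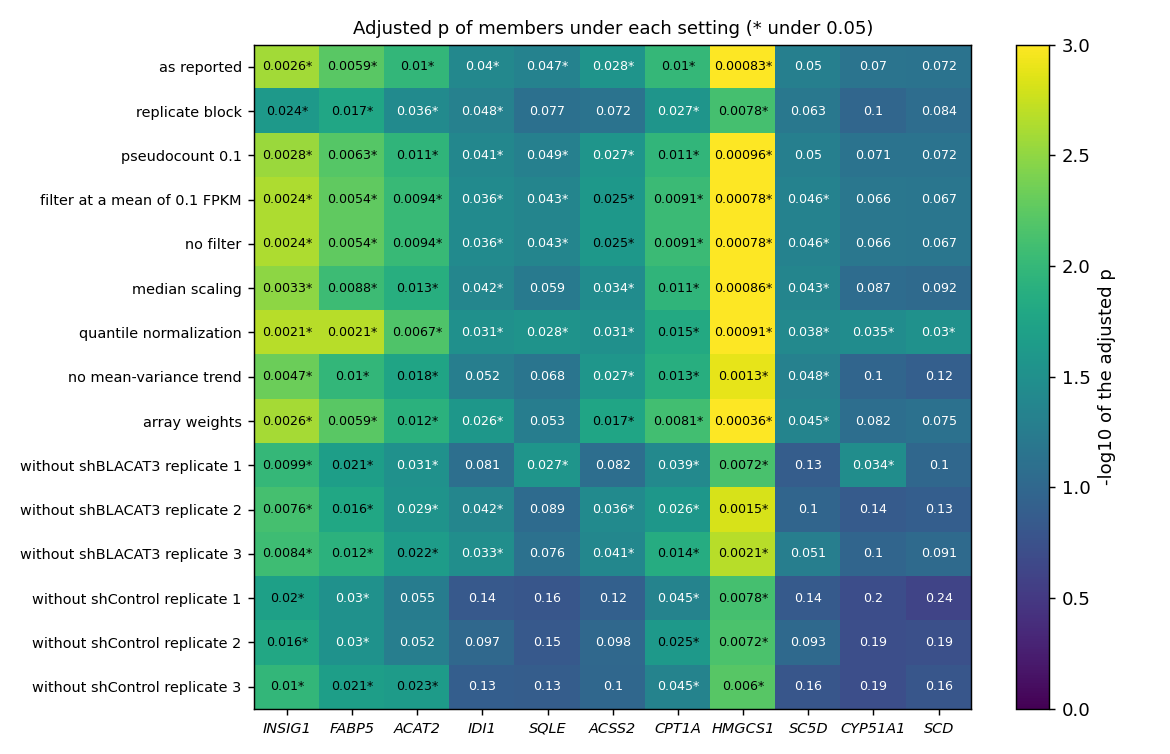
Adjusted p of the 8 genes and of SC5D, CYP51A1 and SCD (columns) under the reported fit and 14 other settings (lines), printed in each cell and coloured by its -log10, with an asterisk under 0.05. HMGCS1, INSIG1, CPT1A and FABP5 carry an asterisk under each setting, while IDI1, SQLE and ACSS2 lose it without any 1 of the shControl replicates.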

How the data were processed

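Total RNA was sequenced from libraries of a stranded kit, per the labels' protocols. Tools named per the submitters' processing notes are cutadapt, HISAT2 2.1.0 and StringTie, while settings, build and annotation were not stated there. The deposited table names no unit, and its values were taken as FPKM because StringTie writes them and they are decimal and never negative. Columns headed NC were read as shControl and SH as shBLACAT3. Of 11081 rows, 11007 found a symbol in the supplied gene names, 19 through GENCODE 29 and 55 kept their identifier. The higher group mean was at least 0.5 in every row, which limits what was listed.

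Rows of shared symbols were summed. The 10008 genes whose mean reached 1 FPKM entered limma 3.58.1 (R 4.3.3) as log2(FPKM + 1), with group as the only term, an intensity trend in the variance prior, two-sided tests and adjustment by Benjamini-Hochberg across all 10008. Fold changes are shBLACAT3 minus shControl and understate low genes. FPKM holds no counts, so depth is unknown. The test was checked on simulated data. The 34 genes and the other lists were chosen with earlier results of these data known. Named were all 34 and, from each other lipid list, members past the threshold. Other settings added the replicate block, changed the pseudocount to 0.1, lowered the filter to 0.1 FPKM or dropped it, used median scaling, quantile normalization, no trend or array weights, or left out each library in turn.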

Additional observations from a re-analysis of the deposited data

How the results depend on the processing

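Each of the 8 calls kept its direction under all 14 other settings. With quantile normalization 8 members were called higher, SC5D, CYP51A1 and SCD being added, against 5 as reported. Leaving out 1 library gave 2 to 5 members higher and 2 to 3 lower, and the fits without shControl replicates 1, 2 and 3 called 387, 444 and 441 genes in all, against 938 as reported. The fits without shBLACAT3 replicates 1, 2 and 3 called 542, 714 and 1315. SC5D passed in 6 of the 8 settings that kept all libraries. Among these, lowering the filter and dropping it kept the same 11078 genes and gave the same fit, so they are not separate checks. SQLE was lost with median scaling, array weights and no trend, and IDI1 with no trend. Signs turned only for genes that did not pass: FADS2 to 0.042 with quantile normalization, and FDFT1 and MSMO1 to -0.0077 and -0.013 with array weights. With 1 library left out the log2 fold change ranged from -0.019 to 0.021 for PMVK, -0.030 to 0.038 for FDFT1, -0.029 to 0.032 for MSMO1, -0.15 to 0.10 for EBP, -0.011 to 0.073 for SREBF1, -0.075 to 0.18 for STARD4, -0.00078 to 0.074 for ACLY and -0.029 to 0.145 for ELOVL6. The cause of these shifts was not tested.

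With the replicate block, 4 members were called higher and 2 lower, SQLE (adjusted p 0.077) and ACSS2 (0.072) being lost beside PNPLA2 and HADHA, and the calls over all genes numbered 612. Same-numbered libraries correlated in their deviations from the group means at 0.1001, 0.117 and 0.0895 across genes, not all above 0.1, so the numbers were not taken to pair the libraries. Each library correlated best with its own number, a hint from the data, and whether they were paired is not known. Read depth is unknown. A gene that did not pass may still have changed.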
